A study of Mus musculus with 15 samples.

Results

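A set of 10 genes that stand high in plasmacytoid dendritic cells (pDC) was followed through the thymic dendritic cells of mice with and without the kinase LKB1: Siglech, Lair1, Ly6d, Ly6c2, Atp1b1, Cybb, Klk1, Mctp2, Pacsin1 and Rpgrip1. They are 10 of the 22165 genes in the count table, found there by Ensembl identifier and mouse symbol, and were chosen by measured values: their level in pDC libraries exceeds that in libraries of conventional dendritic cells (cDC). Their contrast between pDC and cDC is therefore given as a description, with no test. The name surface and membrane genes covers different kinds of protein. Siglech and Lair1 encode transmembrane receptors, Ly6d and Ly6c2 encode proteins tethered to the outer surface by a lipid anchor, and Atp1b1, Cybb and Mctp2 encode transmembrane proteins. Pacsin1 encodes a protein that bends membranes from the cytosol, Rpgrip1 encodes a scaffold at the base of the cilium, and Klk1 encodes a secreted protease.

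RNA came from pDC, type 2 cDC (cDC2) and type 1 cDC (cDC1), each from KO mice, in which Cre under the Itgax promoter acts on a floxed Stk11 gene (Itgax-cre Stk11 fl/fl), and from WT mice. Mice of both genotypes were male and female C57BL/6 animals aged 8 to 12 weeks, and all of them carried a subcutaneous B16 melanoma secreting Flt3L, a growth factor that enlarges the dendritic cell pool, for 9 to 12 days. The tumour is thus shared by WT and KO, and no group of dendritic cells from untreated mice was used here. Thymic cells were enriched on CD11c beads and sorted as Siglec-H+ cells with intermediate CD11c (pDC), as CD11b+ CD11c+ MHC class II+ cells (cDC2) or as CD8a+ CD11c+ MHC class II+ cells (cDC1). The product of Siglech was itself the pDC sorting marker. The Itgax promoter drives CD11c, so that Cre depends on a gene that pDC carry at an intermediate level. There were 3 pDC KO, 3 pDC WT, 3 cDC2 KO, 2 cDC2 WT, 2 cDC1 KO and 2 cDC1 WT libraries of 3′ tags, named below by group and replicate number. Separate mice are not stated for the replicates, so p-values measure the spread between samples, which may be technical.

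Plasmacytoid dendritic cells sense viral and self nucleic acids through endosomal Toll-like receptors and answer with type I interferon. They share lymphoid features with B cells, and their identity rests on the transcription factor TCF4, which binds E-box sequences in DNA. Their response is held in check by surface receptors that signal through adaptors such as DAP12 or through phosphatases, and several of the genes below encode such receptors. Conventional dendritic cells instead specialise in presenting antigen to T cells, and in the thymus all 3 kinds take part in shaping tolerance.

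Promoter sequences are shown for Siglech, the sorting marker, for Mctp2 and for Cybb. Mctp2 was the only member called between KO and WT in the main edgeR fit, in cDC2 alone, and some other fits did not keep that call. Cybb was the member with the highest share of its pDC level in cDC2. Each sequence is the window of 250 bases before the gene's RefSeq start, 5′ to 3′ on the gene's strand. Of the 10 genes, 9 had such a window, Ly6d being the exception. For Cybb and Pacsin1 the RefSeq start lies well inside the GENCODE gene bounds given below, and so does the window. Capitals mark matches on either strand to 3 motifs, searched as exact letters: the E-box CAGGTG, the PU-box core GAGGAA and an interferon-response repeat, GAAA followed by any 2 bases and GAAA.

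Siglech promoter (GRCm38.p6, chr7:55767934-55768183, plus strand): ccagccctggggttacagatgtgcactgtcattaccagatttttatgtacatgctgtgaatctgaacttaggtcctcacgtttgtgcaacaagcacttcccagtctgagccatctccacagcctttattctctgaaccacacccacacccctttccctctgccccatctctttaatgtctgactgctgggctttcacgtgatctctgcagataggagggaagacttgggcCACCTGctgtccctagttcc

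Mctp2 promoter (GRCm38.p6, chr7:72306596-72306845, minus strand): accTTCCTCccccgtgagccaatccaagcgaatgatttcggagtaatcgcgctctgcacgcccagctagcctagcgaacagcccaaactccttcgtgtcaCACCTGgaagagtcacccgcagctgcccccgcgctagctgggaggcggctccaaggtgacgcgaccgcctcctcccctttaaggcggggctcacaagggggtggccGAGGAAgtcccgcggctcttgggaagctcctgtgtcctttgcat

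Cybb promoter (GRCm38.p6, chrX:9469325-9469574, minus strand): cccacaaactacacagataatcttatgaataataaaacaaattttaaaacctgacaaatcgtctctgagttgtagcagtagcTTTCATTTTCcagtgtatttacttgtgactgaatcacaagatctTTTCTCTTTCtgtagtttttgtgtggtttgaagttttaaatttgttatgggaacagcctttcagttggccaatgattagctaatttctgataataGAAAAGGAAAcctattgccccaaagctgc

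The E-box lay 20 bases before the start in Siglech, 150 bases before it in Mctp2 and 87 bases before it in Klk1, and these were 3 of the 9 members with a window. Of all 32851 RefSeq mouse promoters of this length, 17.2% held it. The PU-box core was found in 3 of the 9, Mctp2, Lair1 and Ly6c2, against 23.3% of all promoters. In Mctp2 it stood 247 and 44 bases before the start. The interferon-response repeat was found in 1 of the 9, Cybb, at 168, 124 and 29 bases before the start, against 2.98% of all promoters. The motifs searched did not overlap each other in the windows shown. These matches describe letters in a window and say nothing of binding.

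Levels below are given as CPM, the counts of a gene per 1000000 counts of its library after scaling by the trimmed mean of M-values (TMM), and differences as log2 values from edgeR's quasi-likelihood fit with their standard errors. Total counts per library ran from 3928164 to 12142712, and all 10 genes were among the 11746 tested. Stk11, the floxed gene, was read at 33.2 to 43.5 CPM in pDC KO and 40.6 to 66.8 CPM in pDC WT, at 28.2 to 36.1 CPM in cDC2 KO and 34.2 to 34.9 CPM in cDC2 WT, and at 18.4 to 30.6 CPM in cDC1 KO and 35.6 to 54.2 CPM in cDC1 WT. Its differences did not pass adjustment in any subset, and 3′ tags can lie outside the deleted part, so this gene does not check the genotype labels. The sort labels were compared with marker lists that were chosen with earlier results of these data known. The cDC2 list holds Itgam and the cDC1 list holds Cd8a, the genes of the sorting markers CD11b and CD8a. Their sums are thus set in part by the sort. A list of 18 other pDC genes was chosen for its level in pDC, so its sums are a description. They ran from 26504 to 37837 CPM in pDC libraries and from 2919 to 7572 CPM in cDC libraries. The cDC2 list summed to 577 to 977 CPM in cDC2 and to 71.9 to 154 CPM in cDC1, but also to 540 to 716 CPM in pDC. The cDC1 list summed to 3882 to 5616 CPM in cDC1 and to 1201 to 2153 CPM in cDC2. The pDC libraries held 344 to 1266 CPM of the cDC1 list and 281 to 433 CPM of a thymocyte and T cell list, and all 5 melanoma genes were at 0 in them. The B cell and plasma cell list summed to 72.8 to 129 CPM in pDC and to 9.64 to 20.7 CPM in cDC; of its 6 tested genes, 3 were called higher and 1 lower in pDC, both against cDC1 and against cDC2.

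Siglech encodes Siglec-H, an endocytic lectin of mouse pDC that signals through the adaptor DAP12 and restrains interferon release. The gene lies at chr7:55768178-55778925 (GRCm38, GENCODE M21, plus strand). It stood at 18780.5, 21411 and 20117 CPM in pDC KO and at 15568, 19163 and 27709 CPM in pDC WT. In cDC2 it stood at 153, 147 and 149.6 CPM in KO and at 232 and 177 CPM in WT, and in cDC1 at 133 and 238 CPM in KO and at 154 and 83.2 CPM in WT. The pDC libraries lay far above the rest, the lowest of them 65.3-fold over the highest cDC library. Lair1 (chr7:4003402-4063204, minus strand) encodes an inhibitory receptor for collagen. It was read at 1425, 2028 and 2245 CPM in pDC KO and at 1829.9, 1884 and 2877 CPM in pDC WT. Its cDC2 levels were 57.3, 56.6 and 48.6 CPM in KO and 81.6 and 51.8 CPM in WT, and its cDC1 levels were 25.5 and 32.8 CPM in KO and 24.2 and 12.0 CPM in WT. The lowest pDC library was 17.5-fold over the highest cDC library, and every cDC2 library lay above every cDC1 library.

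The 2 Ly6 members differed in how far cDC libraries fell below pDC. Ly6d (chr15:74762056-74763620, minus strand), a marker of B cell and pDC progenitors, was at 1079, 914 and 793 CPM in pDC KO and at 727, 1150.2 and 662 CPM in pDC WT. In cDC2 it was at 5.71, 3.83 and 3.19 CPM in KO and at 8.01 and 9.34 CPM in WT, and in cDC1 at 4.58 and 6.71 CPM in KO and at 10.1 and 6.19 CPM in WT. Its lowest pDC library was 65.7-fold over its highest cDC library. Ly6c2 (chr15:75108158-75111970, minus strand), which encodes the Ly6C antigen of monocytes and pDC, was at 733, 745 and 471 CPM in pDC KO and at 603, 601 and 357 CPM in pDC WT. Its cDC2 levels were 32.0, 40.3 and 39.1 CPM in KO and 28.2 and 12.8 CPM in WT, and its cDC1 levels were 39.6 and 68.1 CPM in KO and 38.7 and 23.5 CPM in WT. For Ly6c2 the lowest pDC library was only 5.24-fold over the highest cDC library, cDC1 KO 2. Its near-identical neighbour Ly6c1 had 3 counts in all pDC KO libraries together, 0 in pDC WT and 1 in all cDC libraries, while 20.6% of the 50-base windows at the 3′ end of Ly6c2 also occur in Ly6c1, Ly6a or I830127L07Rik, so its counts are uncertain to that extent.

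Cybb (chrX:9435252-9487771, minus strand) encodes the catalytic, electron-transferring subunit of the phagocyte NADPH oxidase, which produces superoxide at membranes. It was at 6861, 7861 and 6168 CPM in pDC KO and at 6323, 6568 and 8539 CPM in pDC WT. Its cDC2 levels were 1185, 908 and 1409 CPM in KO and 1125 and 1165 CPM in WT, and its cDC1 levels were 240.3 and 358 CPM in KO and 197 and 157 CPM in WT. The 3 subsets formed separate steps, with pDC highest, cDC2 in the middle and cDC1 lowest, and the lowest pDC library was 4.38-fold over the highest cDC library. Atp1b1 (chr1:164437109-164458355, minus strand) encodes the β1 subunit that carries the sodium-potassium pump to the surface. It was at 915, 1641 and 644 CPM in pDC KO and at 1157, 1922 and 596 CPM in pDC WT, the widest spread among pDC libraries of any of the 10 genes at 3.22-fold. In cDC2 it was at 11.7, 8.94 and 5.81 CPM in KO and at 9.23 and 4.37 CPM in WT, and in cDC1 at 16.1 and 15.02 CPM in KO and at 6.33 and 5.10 CPM in WT.

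Klk1 (chr7:44225360-44229618, plus strand), which encodes tissue kallikrein, a secreted protease that releases kinins, was nearly off in cDC. It was at 225, 245 and 266 CPM in pDC KO and at 157, 168 and 159 CPM in pDC WT. The cDC2 KO libraries held 0 counts, the cDC2 WT libraries 6 and 3, the cDC1 KO libraries 5 and 5, and the cDC1 WT libraries 2 and 0. Mctp2 (chr7:72077830-72306608, minus strand) encodes a transmembrane protein with calcium-binding C2 domains. It was at 312, 430.3 and 403 CPM in pDC KO and at 341, 286 and 459.8 CPM in pDC WT. The cDC2 KO libraries held 3, 11 and 2 counts of it (0.428, 0.878 and 0.290 CPM) and the cDC2 WT libraries 12 and 35 (2.91 and 5.27 CPM). The cDC1 KO libraries held 14 and 12 counts (1.83 and 1.75 CPM) and the cDC1 WT libraries 2 and 1 (0.469 and 0.182 CPM). These few counts carry the genotype comparisons in cDC below, and there are no molecular identifiers, so intervals on them cover counting error only.

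Pacsin1 (chr17:27655509-27711482, plus strand), an F-BAR protein of endocytosis that takes part in the Toll-like receptor response of pDC, was at 895, 1192 and 952 CPM in pDC KO and at 936, 944 and 813 CPM in pDC WT. In cDC2 it was at 7.70, 3.59 and 5.23 CPM in KO and at 12.6 and 6.63 CPM in WT, and in cDC1 at 6.93 and 14.3 CPM in KO and at 11.7 and 5.64 CPM in WT. The KO and WT libraries overlapped in each subset. Rpgrip1 (chr14:52110704-52163546, plus strand) is best known from the photoreceptor cilium, where its product anchors the retinitis pigmentosa GTPase regulator. It was at 1719, 2759.6 and 2534 CPM in pDC KO and at 1908, 1524 and 2219.6 CPM in pDC WT. Its cDC2 levels were 17.0, 13.2 and 6.82 CPM in KO and 25.98 and 13.1 CPM in WT, and its cDC1 levels were 28.0 and 30.2 CPM in KO and 23.9 and 44.8 CPM in WT. Other genes overlap some members on the opposite strand, Nme7 for Atp1b1, Supt16 for Rpgrip1, Gm10109 for Klk1 and Gm36696 for Mctp2, and the strand setting of the counting is not given in the sources used here.

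**Figure D1:**
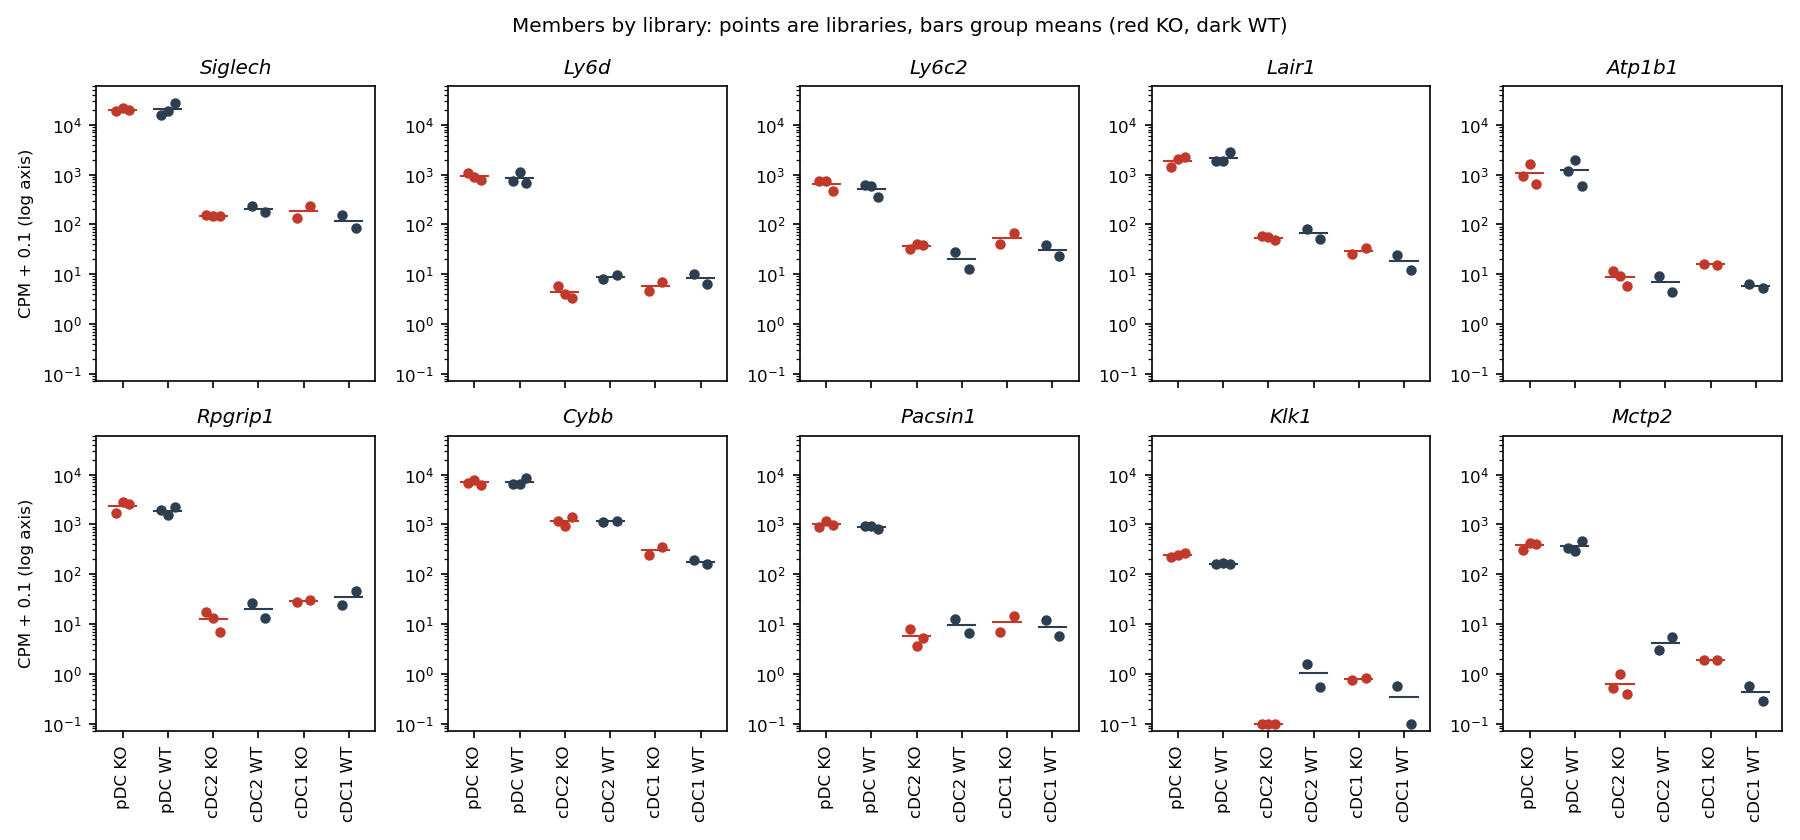
CPM (with 0.1 added, log axis) of each of the 10 genes in every library, 1 panel per gene, by the 6 groups; points are libraries, bars are group means, red is KO and dark is WT. In every panel the pDC KO and pDC WT points lie above all cDC points, closest for Cybb (4.38-fold between the lowest pDC and the highest cDC library) and Ly6c2 (5.24-fold).

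In log2 terms over both genotypes, pDC exceeded cDC1 by 3.83 (Ly6c2) to 8.96 (Klk1) and exceeded cDC2 by 2.61 (Cybb) to 10.63 (Klk1). These values are descriptive, and the Klk1 ends rest on cDC libraries with at most 6 counts each. The members did not vary in step among pDC libraries. In pDC WT 3, Siglech, Lair1, Cybb and Mctp2 were at their highest pDC level while Ly6d, Ly6c2, Atp1b1 and Pacsin1 were at their lowest. The highest pDC library exceeded the lowest by 1.38-fold for Cybb and 1.47-fold for Pacsin1. That library had the smallest TMM factor, 0.841, and 10499062 counts.

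Set against the pDC mean, the cDC libraries carried unequal shares of the members. In bulk samples, fewer cells that express a gene and less RNA per cell cannot be told apart, and whether pDC were among the sorted cDC was not tested. Siglech stood at 0.720% to 0.750% of its pDC mean in cDC2 KO and 0.864% to 1.13% in cDC2 WT, and at 0.652% to 1.17% in cDC1 KO and 0.407% to 0.752% in cDC1 WT. The median share over the 10 genes ran from 0.527% (cDC2 KO 3) to 1.37% (cDC1 KO 2). Within a library the shares were far apart. Cybb reached 12.9% to 20.0% in cDC2, and Ly6c2 led in each cDC1 library with 4.01% to 11.6%, while Klk1 was at 0% in all cDC2 KO libraries and Mctp2 at 0.0490% to 0.126% in cDC1 WT.

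**Figure D2:**
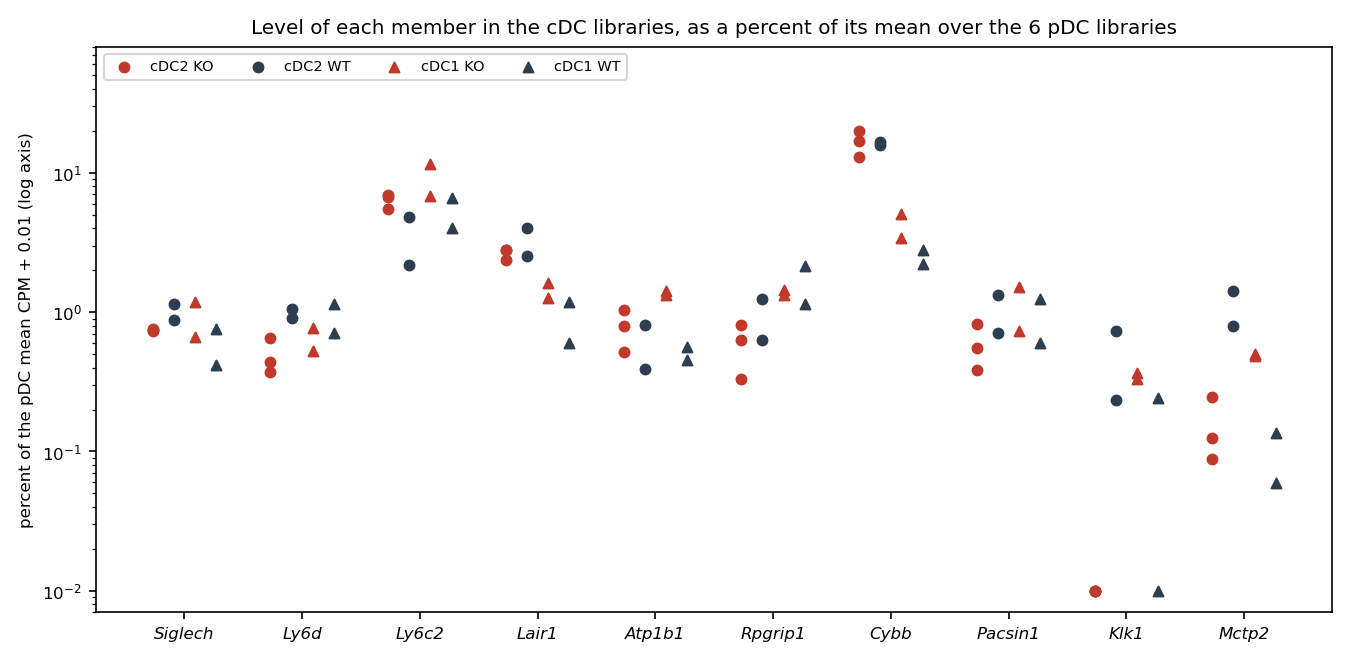
Level of each of the 10 genes in each cDC library as a percentage of its mean over the 6 pDC libraries, with 0.01 added (vertical log axis); points are libraries, circles cDC2 and triangles cDC1, red KO and dark WT. Most genes lie near 1%, with Cybb in cDC2 (12.9% to 20.0%) and Ly6c2 above them and Klk1 and Mctp2 below in some groups.

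Cybb and Lair1 were higher in cDC2 than in cDC1, and Rpgrip1 was lower. This contrast compares no pDC library, so it did not choose the members, but the fit shares its filter, scaling and spread with the pDC libraries. It asks whether the genes that mark pDC also separate the conventional subsets. It called 3 of the 10 members, against 10.8% of all tested genes (1269 genes, 5.07% higher and 5.74% lower in cDC2). Cybb was 5.03-fold higher in cDC2 (log2 2.33 ± 0.21, adjusted p = 2.14e-06, edgeR with Benjamini-Hochberg adjustment), and Lair1 was 2.62-fold higher (1.39 ± 0.25, adjusted p = 0.00185). For both genes all 5 cDC2 libraries lay above all 4 cDC1 libraries, and both calls held whichever of the 15 libraries was left out. Rpgrip1 was 2.05-fold lower in cDC2 (−1.03 ± 0.29, adjusted p = 0.0266), but its libraries overlapped. In an edgeR fit of the cDC libraries alone, Cybb and Lair1 were called and Rpgrip1 was not (adjusted p = 0.05005). Rpgrip1 was no longer called when any of 6 libraries was left out: its adjusted p was 0.0522 without KO 2, 0.0504 without KO 3 and 0.120 without WT 2 of cDC2, and 0.0636 without KO 1, 0.0823 without KO 2 and 0.149 without WT 2 of cDC1. The cDC2 libraries were also higher in myeloid genes: 4 of 8 tested monocyte and neutrophil genes and 5 of 10 macrophage genes were called higher in cDC2 than in cDC1, and none lower. The part of these cells in the Cybb and Lair1 differences was not tested.

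The other 7 members did not pass between cDC2 and cDC1. Siglech differed by 0.24 ± 0.23, Ly6d by −0.15 ± 0.26, Atp1b1 by −0.30 ± 0.37, Pacsin1 by −0.41 ± 0.30 and Ly6c2 by −0.57 ± 0.28. Mctp2 had a larger estimate with a wider error (1.04 ± 0.43), and Klk1, at 0 counts in cDC2 KO, is described by its counts above. The order of the levels was thus pDC, cDC2, cDC1 for Cybb and Lair1. For the remaining 8 genes the libraries of the conventional subsets overlapped, Rpgrip1 included, and for the 7 that were not called the order of cDC2 and cDC1 is not set by these libraries.

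No member passed adjustment between pDC KO and pDC WT. None of the 10 was called by edgeR, and none by DESeq2 or limma voom, where edgeR called 0.0681% of all tested genes (8 genes). None reached an unadjusted p under 0.05, against 10.6% of all genes. The estimates for 9 of them lay between −0.21 ± 0.29 (Lair1) and 0.32 ± 0.33 (Ly6c2), and that for Siglech was −0.05 ± 0.28. Klk1 differed from the rest in that its 3 KO libraries (225, 245 and 266 CPM) all lay above its 3 WT libraries (157, 168 and 159 CPM). Its difference was 0.60 ± 0.30 with an adjusted p of 0.503. Such separation of the groups was seen in 1 of 10 members and in 11.3% of all genes. A missed threshold does not show equal levels.

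In cDC2, Mctp2 fell in KO. Its 16 counts over the 3 KO libraries stood against 47 over the 2 WT libraries, and all KO libraries lay below both WT libraries. The log2 difference was −2.81 ± 0.45 (adjusted p = 0.0323). Pooled over libraries, the KO level was 0.139 times the WT level, with a 95% counting interval of 0.0733 to 0.249. This was 1 of 10 members called, against 0.119% of all genes (14 genes, of which 10, or 0.0851%, were higher and 4, or 0.0341%, lower in KO). With relative log expression (RLE) scaling, 2 genes were higher and 3 lower, Mctp2 among the lower (adjusted p = 0.0189). Leaving out cDC2 KO 1 gave an adjusted p of 0.0789, leaving out KO 3 gave 0.0898 and leaving out WT 2 gave 0.102, each of which ended the call. It was not made by limma voom (adjusted p = 0.291) or when the cDC2 libraries were fitted alone (adjusted p = 0.232). That Mctp2 passes here was already known from earlier results of these data, so its call is no new support.

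Klk1 entered the comparisons within cDC only through its pDC libraries: with the cDC libraries of a comparison fitted alone it fell under the count filter and 9 members were tested. It had 0 counts in cDC2 KO against 9 in WT, and its adjusted p by edgeR was 0.0514. With a floor of 3 counts over the KO group, Klk1 was 7.37-fold lower in KO, a value that leaves out the counting error of the WT counts. Ly6d was lower in every KO library, at 3.19 to 5.71 CPM against 8.01 to 9.34 CPM in WT, with a difference of −1.04 ± 0.35 that did not pass adjustment (adjusted p = 0.226). Siglech also lay lower in every KO library (−0.44 ± 0.31, adjusted p = 0.573), and Ly6c2 lay higher in each (0.87 ± 0.39, adjusted p = 0.345). In all, KO and WT libraries did not overlap for 5 of the 10 members, 4 lower and 1 higher, Klk1 being among the lower. Of all genes, 34.8% did not overlap (11.7% lower and 23.1% higher). In 7 of the 10 the estimate was below 0. The median difference over the 10 was −0.55, against 0.09 over all tested genes, and it is unchanged with Klk1 at its floor. At an unadjusted p under 0.05 there were 4 members, against 13.3% of all genes. Klk1, kept in the test only by its pDC libraries, was among these members. The list of 18 other pDC genes summed to 2919 to 3698 CPM in cDC2 KO and 3022 to 5031 CPM in cDC2 WT, 18 of 18 being read in each. The thymocyte list summed to 44.8 to 59.0 CPM in KO, 10 of 10 being read, and to 73.6 to 118 CPM in WT, 9 of 10 being read and Ptcra at 0. The cDC1 list summed to 1201 to 1531 CPM in KO, 10 of 10 being read, and to 1770 to 2153 CPM in WT, 9 of 10 being read and Cd207 at 0. The macrophage list summed higher in KO, at 116 to 148 CPM against 78.4 to 94.1 CPM in WT, with 10 of 10 read in each. Gene by gene, 5 of its 10 estimates were above 0 and 5 below, with a median of 0.008. The part of such cells in these differences was not tested.

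In cDC1, 8 of the 10 estimates were above 0 and none passed. No member was called in KO against WT by edgeR, DESeq2 or limma voom, where edgeR called 0.0255% of genes (3 genes), and 3 members had an unadjusted p under 0.05 against 3.83% of genes. Mctp2 held 26 counts over the 2 KO libraries and 3 over the 2 WT libraries, a pooled KO over WT ratio of 5.83 (95% counting interval 1.79 to 30.1) and a log2 difference of 2.47 ± 0.69 (adjusted p = 0.781). Atp1b1 stood at 16.1 and 15.02 CPM in KO and at 6.33 and 5.10 CPM in WT, a difference of 1.45 ± 0.55 with an adjusted p of 1. Cybb stood at 240.3 and 358 CPM in KO and 197 and 157 CPM in WT (0.76 ± 0.30, adjusted p = 1). Ly6c2, Lair1 and Klk1 were likewise higher in both KO libraries, Klk1 with 10 KO counts against 2 WT counts (ratio 3.36, interval 0.717 to 31.6). These made 6 of 10 members without overlap, all higher in KO, where 19.3% of all genes were so and 37.2% did not overlap in either direction. Klk1, kept in the test only by its pDC libraries, was among these 6 and among the 8 estimates above 0. The median over the members, Klk1 included, was 0.73, against 0 over all genes. The other pDC genes summed to 4900 to 5389 CPM in cDC1 KO and 6423 to 7572 CPM in cDC1 WT, the cDC1 markers to 3882 to 4662 CPM in KO and 5319 to 5616 CPM in WT, and the macrophage list to 51.8 to 58.6 CPM in KO and 24.9 to 28.6 CPM in WT. All genes of these 3 lists were read in both groups. A sum leans on the most abundant genes of a list. Gene by gene, 13 of the 18 other pDC genes had an estimate above 0 in cDC1 and 5 below, with a median of 0.09. Of the 10 macrophage genes, 4 had an estimate above 0 in cDC1 and 6 below, with a median of −0.25. The thymocyte list summed to 92.2 to 157 CPM in KO, 9 of 10 being read and Ptcra at 0, and to 169.8 to 209 CPM in WT, 10 of 10 being read. The monocyte and neutrophil list summed to 103 to 129 CPM in KO, 10 of 10 being read, and to 186 to 204 CPM in WT, 8 of 10 being read and S100a8 and Chil3 at 0. The part of these lists' cells in the differences was not tested.

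**Figure D3:**
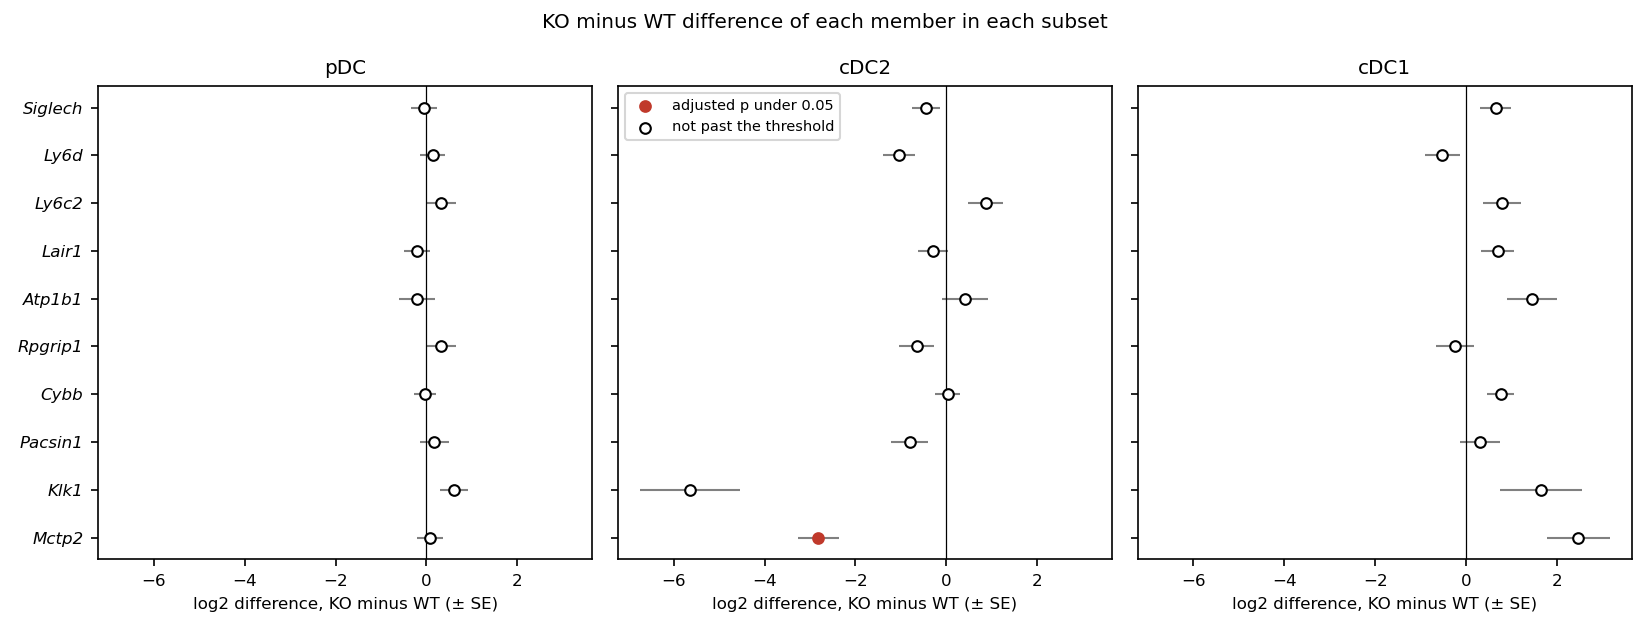
KO minus WT difference (log2, horizontal axis) of the 10 genes in pDC, cDC2 and cDC1; points are estimates from the fit across all genes, bars are standard errors, and a filled point has an adjusted p under 0.05. In pDC the points lie close to 0; Mctp2 lies at −2.81 in cDC2 and at 2.47 in cDC1, and Klk1 in cDC2 (−5.64) is a fitted value against a group with 0 counts.

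In the main fit, the genotype effect on Mctp2 was called as different between the conventional subsets, but most alternative fits did not keep the call. The effect in cDC2 minus the effect in cDC1 was −5.28 ± 0.81 (adjusted p = 0.0472), and Mctp2 was the only gene called in this contrast, 0.00851% of the 11746 tested. The 2 cDC subsets thus stood in opposite order by genotype: KO below WT in cDC2 and KO above WT in cDC1. The contrast was added after the values were known, and its call was kept in 3 of the 15 fits that left out a library, those without cDC2 KO 2, cDC2 WT 1 or pDC WT 3. It ended without any of the other 12. The differences ran from −6.03 to −4.70 and the adjusted p-values from 0.0194 to 0.344. With the replicate number as a block it was not called (adjusted p = 0.0832), nor with limma voom (0.298), non-robust spread (0.0597) or only the cDC libraries (0.187). No difference is given for Klk1, which had 0 counts in cDC2 KO. Siglech differed by −1.09 ± 0.47 (adjusted p = 0.564), and Ly6c2 by 0.08 ± 0.56.

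Averaged over the 3 subsets, no member was called in KO against WT by edgeR, DESeq2 or limma voom, where edgeR called 0.306% of genes (36 genes). At an unadjusted p under 0.05 there were 3 members, against 10.2% of all genes. These were Ly6c2 (0.66 ± 0.22, adjusted p = 0.295), Ly6d (−0.48 ± 0.20, adjusted p = 0.423) and Klk1, whose fitted value rests on a group at 0 counts (adjusted p = 0.466). For Ly6c2 the estimate was positive in each subset, at 0.32 in pDC, 0.87 in cDC2 and 0.80 in cDC1. The effect in pDC minus the mean effect in cDC was not called for any member by edgeR, DESeq2 or limma voom. By edgeR, 0% of all genes passed in that contrast (DESeq2 called 50), and at an unadjusted p under 0.05 there were 2 members, Ly6d (0.91 ± 0.38) and Klk1, again through the group at 0, against 8.72% of all genes.

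Partners and relatives of the members were compared between pDC and cDC in the same fit. In 9 lists, leaving out the list of 18 other pDC genes that was chosen for its level in pDC, 41 of 70 tested genes were called between pDC and cDC1 and 40 between pDC and cDC2. Of all tested genes, 38.4% (16.7% higher and 21.6% lower) were called against cDC1 and 38.3% (17.7% higher and 20.6% lower) against cDC2. Both comparisons use the same pDC libraries. Beside Siglech, 5 of 7 tested Siglec and adaptor genes were higher in pDC than in cDC1 and 2 lower, and 3 were higher than in cDC2 and 2 lower. Tyrobp, which encodes the adaptor DAP12 that Siglec-H needs, rose by 2.55 ± 0.19 over cDC1 (adjusted p = 6.88e-09) and by 2.50 ± 0.17 over cDC2 (adjusted p = 3.69e-09). It stood at 1622 ± 146 CPM in pDC KO and 1304 ± 160 CPM in pDC WT (SD, n = 3 each). Syk, the kinase downstream of DAP12, was higher by 2.80 ± 0.22 and 1.33 ± 0.19. Cd22 and Siglece, inhibitory Siglecs, were lower in pDC in both comparisons.

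Around Lair1, 7 of 14 tested inhibitory receptor and phosphatase genes were higher in pDC than in cDC1 and 3 lower, and 6 were higher than in cDC2 and 3 lower. Cd300lf (6.67 ± 0.33 over cDC1, 1.92 ± 0.23 over cDC2) and Klra17, which encodes the pDC receptor Ly49Q (4.86 ± 0.35 and 4.31 ± 0.32), were among the higher genes, as was Ptpn6, the SHP-1 phosphatase that such receptors recruit (1.73 ± 0.22 over cDC1). Clec4a2 was lower, by −7.85 ± 0.66 against cDC2, and so was Fcgr2b, by −1.37 ± 0.21 against cDC1. In the Ly6 family, 4 of 6 tested genes were higher than in cDC1 and 5 of 6 higher than in cDC2. Lynx1, a lipid-anchored modulator of acetylcholine receptors, was higher by 4.77 ± 0.37 and 6.21 ± 0.40, and Ly6a, which encodes Sca-1, was higher by 1.92 ± 0.21 and 1.65 ± 0.19. Ly6i was the Ly6 gene that was lower in pDC than in cDC2, by −4.67 ± 0.55.

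The NADPH oxidase genes did not follow Cybb as a group. Of 10 tested, 3 were higher in pDC than in cDC1 and 2 lower, and 3 were higher than in cDC2 and 3 lower. Rac2, the GTPase that activates the enzyme, was higher by 2.83 ± 0.22 over cDC1 and 2.48 ± 0.20 over cDC2. Hvcn1, the proton channel that balances its charge, was higher by 3.49 ± 0.35 and 3.32 ± 0.32, and Ncf1, the organising subunit p47phox, by 1.87 ± 0.22 and 1.12 ± 0.20. The cytosolic subunit gene Ncf4 was lower, by −1.89 ± 0.23 against cDC1 and −0.96 ± 0.22 against cDC2. Cyba, the membrane partner of the Cybb protein, stood at 254 ± 59.5 CPM in pDC KO, 155 ± 44.8 in pDC WT, 255 ± 13.6 in cDC2 KO and 138 ± 19.5 in cDC2 WT (SD), and it was not called in either comparison. Between cDC2 and cDC1, Ncf4 was lower in cDC2 by −0.93 ± 0.24, where Cybb was higher by 2.33.

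Mctp1, the paralog of Mctp2, was lower in pDC by −5.41 ± 0.39 against cDC1 and −4.00 ± 0.36 against cDC2 (adjusted p = 5.89e-09 and 9.48e-08). It stood at 3.85 ± 3.66 CPM in pDC KO and 4.43 ± 2.75 in pDC WT (n = 3 each), at 52.8 ± 3.07 in cDC2 KO (n = 3) and 86.1 ± 18.3 in cDC2 WT (n = 2), and at 153 ± 12.7 in cDC1 KO and 208 ± 36.0 in cDC1 WT (n = 2 each). Of the 10 tested C2-domain membrane genes, 6 were lower and 1 higher in pDC than in cDC1, and 4 lower and 1 higher than in cDC2. Sytl1, which encodes a Rab27 effector, was the higher gene in each (5.21 ± 0.96 and 4.70 ± 0.85). Pacsin2, the widely expressed relative of Pacsin1, was lower by −1.68 ± 0.29 and −1.65 ± 0.28, and Bin1, another membrane-bending protein, by −1.19 ± 0.26 and −1.75 ± 0.25. Beside Atp1b1, Fxyd5, a regulator of the pump, was lower by −1.67 ± 0.21 and −0.96 ± 0.20. The β3 subunit gene Atp1b3 was not called.

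Klk1b27 was the only other kallikrein gene called of the 2 tested, and it was higher in pDC. It had 707 counts in pDC KO and 659 in pDC WT, but 0 in cDC2 KO, 4 in cDC2 WT, 1 in cDC1 KO and 0 in cDC1 WT. It thus passed the count filter only through its pDC libraries, so its call describes it and is no support. The call is counted in the totals above. At the 3′ end of Klk1, 30.6% of 50-base windows also occur in Klk1b genes, Klk1b27 among them, so reads of these genes may be mixed. Of 8 tested partners of Rpgrip1 at the cilium, Cep290 and Rpgr were higher in pDC than in cDC1, by 0.94 ± 0.33 and 1.09 ± 0.40. Against cDC2, Invs was higher and Sdccag8 lower, by −1.52 ± 0.24. Of the 18 other pDC genes, 16 were higher than in cDC1 and 17 higher than in cDC2, none lower. That list was chosen for its level in pDC, so these counts and differences describe it and are no support. Tcf4, the master regulator of pDC, was higher by 3.79 ± 0.19 and 3.41 ± 0.18, and Spib, its partner in pDC development, by 5.06 ± 0.26 and 3.87 ± 0.22.

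**Figure D4:**
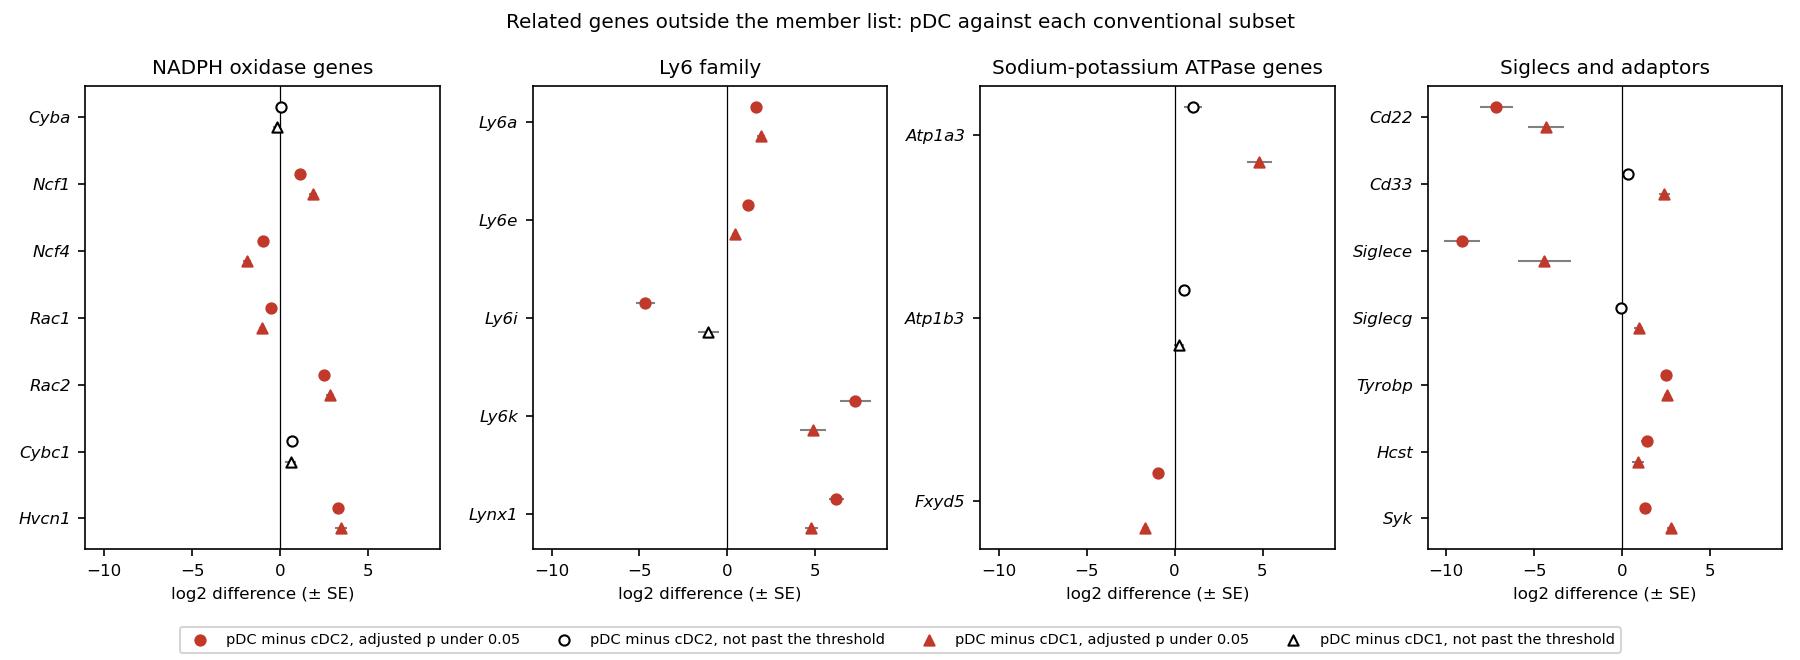
Log2 differences (horizontal axis, bars are standard errors) of genes related to the members, pDC minus cDC2 (circles) and pDC minus cDC1 (triangles), for a selection of genes with a group mean of at least 5 CPM; filled points have an adjusted p under 0.05. Rac2, Hvcn1 and Ncf1 lie to the right of 0 and Ncf4 to the left, while Cyba lies at 0.08 against cDC2 and at −0.17 against cDC1.

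Of 88 related genes in 10 lists, the other pDC genes included, 2 were called between KO and WT on average, against 0.306% of all tested genes, and 1 of them in cDC1, against 0.0255%. Cox6a2, a muscle-type subunit of cytochrome oxidase that also marks pDC, was higher in KO on average over the subsets (3.19 ± 0.32, adjusted p = 3.82e-05) and in cDC1. Ly6a was higher on average (0.85 ± 0.16, adjusted p = 0.0341). Itgam, a gene of the cDC2 marker list, was also higher in KO, in pDC (3.68 ± 0.38, edgeR adjusted p = 0.000112) and in cDC1 (3.43 ± 0.57, edgeR adjusted p = 0.0431). In cDC2 no gene of that list was called. KO mice also carry the Itgax-cre transgene, and its effects cannot be told apart from those of Stk11 loss here.

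The profiles most like the median of the 10 members over the 6 group means of log2(CPM + 1), each gene centred on its own mean, were those of Cmah, Prkca, Myh13, Chdh, Blnk and Ctsl, with root mean square differences of 0.22, 0.25, 0.30, 0.32, 0.41 and 0.42. They encode an enzyme that modifies sialic acid, a protein kinase C, a muscle myosin, choline dehydrogenase, the B cell adaptor BLNK and the protease cathepsin L. For Siglech alone the nearest were Cmah (0.20), Myh13 (0.28) and Prkca (0.33). Cmah was at 270.0 to 552 CPM in pDC libraries and at 0.704 to 5.10 CPM in cDC libraries. These genes were found by their likeness in the same libraries, and nothing follows about shared function or control.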

How the data were processed

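RNA of sorted thymic dendritic cells was read as 3′ tags in 15 libraries. Barcoded oligo-dT primed the cDNA, which was pooled and amplified by PCR, per the labels' protocols. The authors deposited raw counts per gene, with no normalization. STAR, HTSeq, DESeq2 and mm10 are named in the submitters' processing notes, without versions. The strand setting and what was done with duplicates are not stated there.

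Genes were matched by Ensembl identifier to symbols and GRCm38 coordinates of GENCODE M21 (21745 of 22165 matched, 5860 had no count). The filter filterByExpr on the 6 groups kept 11746 genes, and those left out held 0.0538% of the counts. A quasi-likelihood model with 1 coefficient per group and robust spread was fitted to all 15 libraries with edgeR 4.0.16 in R 4.3.3 (TMM scaling, common biological coefficient of variation 0.395). Tests are two-sided, with Benjamini-Hochberg adjustment over all tested genes and a threshold of 0.05. CPM values use TMM-scaled library sizes. A fold against 0 counts uses a floor of 3 counts over the group, and ratios of few counts carry exact 95% intervals. Every pair of replicates differed beyond counting error (chi-square per degree of freedom 28.1 to 103). The fit was tested on simulated data.

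Of each related-gene list, up to 4 genes past the threshold with the smallest p were eligible to be named, with Ly6c1 and the Klk1b genes whatever their values. Cyba, Atp1b3, Fcgr2b and Itgam, and marker genes at 0, were named after their values were seen. Genes with the nearest profiles were the 6 closest to the members and the 3 closest to Siglech. The members, the gene lists and the tests were chosen with earlier results of these data known, and the difference between the KO effects in cDC2 and cDC1 was added later. The alternatives tried were DESeq2 1.42.0, limma 3.58.1 (voom with sample weights), RLE scaling, no filter, a filter at 10 CPM in 2 libraries, only the groups of a contrast, non-robust spread, a replicate block, and each library left out. Some genes of the lists are counted but not reported here by name.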

Additional observations from a re-analysis of the deposited data

Results flagged for a closer look

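Mctp2 was singled out because its KO effect differed between the conventional subsets by the test of the difference itself. The effect in cDC2 minus the effect in cDC1 was −5.28 ± 0.81 on the log2 scale (adjusted p = 0.0472, edgeR's quasi-likelihood test), in a contrast added after the values were seen. The call was kept in 3 of 15 fits that left out a library, and it ended with limma voom (adjusted p = 0.298), non-robust spread (0.0597), the replicate block (0.0832) and only the cDC libraries (0.187). It rests on 16 KO counts against 47 WT counts in cDC2 and on 26 KO counts against 3 WT counts in cDC1. The groups did not overlap in either subset: 3 of 3 cDC2 KO libraries lay below both WT libraries, and 2 of 2 cDC1 KO libraries lay above both WT libraries. In pDC, where the gene is far higher, KO and WT overlapped (0.08 ± 0.28).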

How the results depend on the processing

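The counts of members called in KO against WT in pDC and in cDC1, on average and in the pDC minus cDC effect were 0 under every alternative that could be run, and 2 to 3 of the 3 calls between cDC2 and cDC1 held. In cDC2, 1 member was called in KO against WT, but 2 with DESeq2 and 2 without a filter (Klk1 and Mctp2), 0 with limma voom, 0 with only the cDC2 groups, and 0 to 2 when a library was left out. Without cDC2 WT 2 the called member was Klk1 in place of Mctp2. For the KO effect in cDC2 minus that in cDC1, 1 member was called, but 2 with DESeq2, 2 without a filter, 0 with limma voom, 0 with non-robust spread, 0 with only the groups of the contrast, and 0 to 1 with a library left out. With the replicate number as a block, 1 member was called in cDC2 and 0 in the difference of effects (Mctp2 adjusted p = 0.0832). The block changed no other call of a member. Same-numbered KO and WT libraries correlated at −0.189 in cDC1, at 0.112 and −0.0816 in cDC2 and at −0.0567, 0.0517 and −0.0243 in pDC. Across subsets within a genotype, same-numbered libraries correlated at −0.238 (cDC2 with pDC, KO 3) to 0.208 (cDC1 with cDC2, KO 1). In a group of 2 libraries the deviations from the mean mirror each other, so these values cannot settle whether the numbers pair the samples.

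Counts over all genes moved more. DESeq2 called 16, 222 and 137 genes in cDC1, cDC2 and pDC, against 3, 14 and 8 with edgeR, and 133 on average against 36. Without a filter the counts were 28, 177, 203 and 166, with RLE scaling 1, 5, 8 and 34, and with the block 1, 7, 3 and 19. With limma voom they were 10, 0, 6 and 34, and with only the groups of a contrast 2, 2 and 2 in the subsets. The pDC minus cDC effect had 0 genes called, but 50 with DESeq2 and 111 without a filter, and the cDC2 minus cDC1 effect had 1, but 40 and 38. Between cDC2 and cDC1, 1921 genes were called with only those groups fitted, against 1269. RLE scaling moved the median of all genes in cDC2 by −0.10. The cause of these moves was not tested. Group means moved by no more than 1 SD of their group in 209 of 210 alternatives. The exception was Klk1 in pDC WT without TMM factors (153 CPM). Leaving out 1 library of a group of 2 or 3 cannot move its mean by more than that SD. Those alternatives were bound to pass, and only the ones without TMM factors could fail. No direction of a called member turned. Depth limits Klk1 and Mctp2 in cDC, where libraries held 0 to 35 counts. The average and the pDC minus cDC effect use all groups, so no fit on fewer groups exists for them.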
